A study of Mus musculus with 32 samples.

Results

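Open chromatin was mapped by ATAC-seq, in which a transposase cuts accessible DNA, in inflammatory monocytes (iMo), patrolling monocytes (pMo), interstitial macrophages (IM) and alveolar macrophages (AM) sorted from mouse lungs. Of 35947 peaks deposited for iMo of C57BL6J mice, 335 overlapped an iMo peak of DBA2J mice by at least 1 bp and overlapped no peak in any of the 6 pMo, IM and AM lists. These regions are called iMo-only peaks here, and the 8 lists together hold 311509 peaks. The regions were chosen by presence in the iMo lists and absence from the others, so that their scores and their restriction to iMo are a description and carry no test. The mice were DBA2J and C57BL6J, a pair of inbred strains, and all were untreated. Cells were sorted by flow cytometry with antibodies that include Ly6c, CD11b, CD64 and SiglecF, and the sources used here give no age or sex. For each cell type and strain there were 2 ATAC-seq libraries, with 1 deposited peak list for both, and 2 RNA-seq libraries. Peaks therefore have no replicate of their own within a strain. One label field calls the iMo monocytes and another calls them macrophages, and monocytes is used here. The labels do not state whether replicate libraries derive from different mice, and p-values therefore reflect only the spread among these samples, which may be technical.

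Inflammatory monocytes, also called classical or Ly6C-high monocytes, leave the bone marrow through the chemokine receptor Ccr2 and enter inflamed tissue, where they can become macrophages or dendritic cells. Patrolling monocytes survey vessel walls and depend on the nuclear receptor Nr4a1. Regions open in one cell type but closed in its relatives often lie away from promoters, in enhancers that are bound by lineage factors such as PU.1, C/EBP, IRF and AP-1 proteins.

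A few iMo-only peaks lay on a promoter, and 5 of them, picked after their values were seen, are shown because they differ in kind, from a CpG-rich promoter beside another type's peak to starts far from any. The sequences are RefSeq's (GRCm38.p6, the build mm10 of the peak lists), and each runs 5′ to 3′ on the gene's strand over the bases that lie both under the peak and before the transcription start. Capitals mark a match to a motif searched on both strands. The peak at Ubtd1 (chr19:41981539-41981739, plus strand), a gene for a ubiquitin-domain protein, had the highest C57BL6J score of the promoter peaks and lay 20 bp from a peak of DBA2J AM. The other 4 lay at least 4.89 kb from any peak of another type, at the genes of a gastrin-releasing peptide receptor (Grpr, chrX:163549797-163549986, minus strand), a subunit of the kinase that activates cyclin-dependent kinases (Mnat1, chr12:73123596-73123716, plus strand), a cell-surface glypican (Gpc3, chrX:52613975-52614131, minus strand) and a copine (Cpne4, chr9:104569482-104569654, plus strand).
Ubtd1: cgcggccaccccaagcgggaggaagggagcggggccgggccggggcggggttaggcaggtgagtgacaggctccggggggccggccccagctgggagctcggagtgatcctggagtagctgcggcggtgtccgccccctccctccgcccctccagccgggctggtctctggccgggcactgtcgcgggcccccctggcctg
Grpr: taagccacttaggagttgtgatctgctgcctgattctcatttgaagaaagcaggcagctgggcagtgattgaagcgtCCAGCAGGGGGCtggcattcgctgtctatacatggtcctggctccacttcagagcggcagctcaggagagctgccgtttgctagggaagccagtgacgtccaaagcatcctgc
Mnat1: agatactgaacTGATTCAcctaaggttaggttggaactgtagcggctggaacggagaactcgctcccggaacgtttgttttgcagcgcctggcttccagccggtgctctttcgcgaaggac
Gpc3: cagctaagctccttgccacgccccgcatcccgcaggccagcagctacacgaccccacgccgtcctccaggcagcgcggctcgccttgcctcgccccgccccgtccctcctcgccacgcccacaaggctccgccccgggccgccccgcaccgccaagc
Cpne4: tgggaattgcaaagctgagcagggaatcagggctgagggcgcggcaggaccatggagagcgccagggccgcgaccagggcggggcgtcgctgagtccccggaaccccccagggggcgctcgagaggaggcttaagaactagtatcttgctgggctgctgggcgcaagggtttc

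The run in capitals in Grpr matched the core of the CTCF motif, which 0.558% of all RefSeq promoter windows held, each running from 250 bases before a start to 50 after it. The run in capitals in Mnat1 matched the AP-1 motif, TGANTCA, held by 7.81% of all windows. No letters in the Ubtd1, Gpc3 and Cpne4 stretches matched any of the 15 motifs searched. In all, 14 iMo-only peaks overlapped a promoter window, and 9 of them by at least 100 bases. Those 9 windows had a median GC content of 70.0% (range 45.0% to 81.0%), against 62.7% in the 8688 windows under iMo peaks of both strains and 52.7% in all 32817 windows. The median ratio of observed to expected CpG was 0.80 in the 9, against 0.82 in the windows under iMo peaks and 0.38 in all windows. Of the 15 motifs 5 occurred in any of the 9 windows, each in 1 of them, and the PU.1 motif GAGGAAGT was in none, against 3.67% of the windows under iMo peaks and 3.20% of all windows. The sequences of peaks away from promoters were not analysed here.

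Peaks found in the iMo lists alone were rare. Absence from a list means only that no peak was listed there, since signal in the other types was not measured. Of 26956 C57BL6J iMo peaks that also occurred in DBA2J iMo, the 335 in no other list made up 1.24%, whereas 12512 (46.4%) overlapped a peak in all 6 other lists. In between, 1130 peaks were shared with a single other list, 1860 with 2, 2484 with 3, 4244 with 4 and 4391 with 5. By the same rule, 208 peaks were found only in pMo, 429 only in IM and 3975 only in AM, and 152 in both monocytes but in no macrophage.

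**Figure D1:**
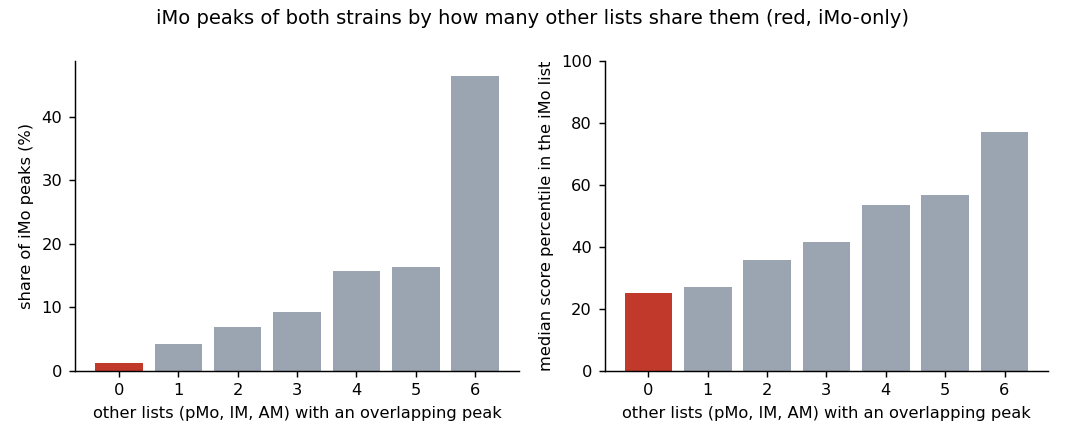
iMo peaks found in both strains, by the number of other lists (pMo, IM and AM of both strains) that hold an overlapping peak; the left panel gives the share of the 26956 peaks in percent and the right panel the median percentile of the authors' score in the C57BL6J iMo list. The 335 iMo-only peaks (red) make up 1.24% and have the lowest median percentile, 25.0, against 77.1 for peaks in all 6 other lists.

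The iMo-only peaks were among the weak peaks of their own lists. The authors' score, on a scale that no source used here states, had a median of 40.4 over the iMo-only peaks in C57BL6J (range 29.0 to 102.2), against 61.9 over all C57BL6J iMo peaks and 79.5 over those found in both strains. Expressed as a percentile of its own list, the median iMo-only peak stood at 25.0 in C57BL6J and its partner at 21.2 in DBA2J. In C57BL6J 174 of 335 (51.9%) were below the percentile 25 of the list and none was above 75, and in DBA2J 2 were above 75, those at Ubtd1 and Myo1c. Only 11 peaks were above the median of both lists, among them those near Irf5 and Ubtd1. Scores in DBA2J and C57BL6J followed each other only loosely across the 335 peaks (Spearman's rho 0.26 across peaks, which share libraries and are not replicates). The positions matched closely, with a median overlap between strains of 188 bp for peaks of 200 bp, and 333 of 335 overlapped by at least 100 bp.

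The 10 highest scores in C57BL6J were 80.8 to 102.2. The first lay 34.6 kb downstream of the start of Oat, an ornithine aminotransferase, with a score of 61.7 in DBA2J and 102.2 in C57BL6J. The second lay inside Smyd2, a lysine methyltransferase, 50.5 kb from its start, with scores of 43.1 in DBA2J and 101.0 in C57BL6J. The Ubtd1 peak was the third and scored 184.2 in DBA2J and 98.5 in C57BL6J. Both a peak 4.87 kb upstream of Irf5 and a pair of peaks nearest to Ttll7, at 208.5 and 39.1 kb, were among the 10. By RefSeq the Ttll7 peak at 39.1 kb also reached a promoter window of Prkacb, a catalytic subunit of protein kinase A.

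One list held most of the near misses. Of the 1130 iMo peaks shared with a single other list, 799 (70.7%) were shared with C57BL6J IM alone, the longest list with 70013 peaks. Its lowest score was 7.41, against 20.5 to 31.2 in the other lists, but each list has its own unit. The average step between the lowest scores was 0.205 in C57BL6J IM and 0.73 to 1.27 elsewhere. In these steps the lowest score was 36 in C57BL6J IM and 20 to 31 elsewhere. Raw scores of different lists are therefore not comparable. Without the C57BL6J IM list the rule would have given 1134 peaks. Those 799 had a median percentile of 22.9 in the iMo list and 39.8 in the IM list. Among them was a peak near Nr4a2, 12.3 kb from the start, at percentile 50.9 of the iMo list and 35.4 of the IM list. Another lay 20.1 kb from the start of Il15, a cytokine gene, at percentile 54.4 of the iMo list and 4.23 of the IM list. At the edge of the rule 24 iMo-only peaks had a peak of another type less than 100 bp away, and 4 iMo peaks were left out by an overlap of less than 20 bp. A further 151 (45.1%) lay over 10 kb from any peak of another type, the farthest 666444 bp.

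Most iMo-only peaks lay far from transcription starts. The nearest transcription start was a median of 27.8 kb away, against 6.87 kb for all C57BL6J iMo peaks and 3.11 kb for those of both strains, and 67 of 335 (20.0%) lay within 1 kb of a start, against 35.1% and 43.1%. Of pMo-only peaks 9.13% lay within 1 kb, and of peaks in both monocytes but no macrophage 21.1%. Shares of 25.6% and 25.2% were found for iMo peaks of both strains that 1 or 2 other lists held. Those peaks were also low in score (median percentiles 27 and 35.7). Among peaks in all 6 other lists the share was 53.7%. Whether position follows score was not tested. Another 64 iMo-only peaks (19.1%) lay over 100 kb from any start of the authors' gene table, against 7.81% of all iMo peaks. The share was 21.2% for pMo-only peaks and 27.6% for peaks in both monocytes but no macrophage. It was 7.23% for IM-only and 9.46% for AM-only peaks. Starts absent from that table were missed. By RefSeq the peak 11 kb from the start of Inpp5a also reached a promoter window of Gm46004. The Mb around an iMo-only peak held a median of 7 starts, against 12 around all iMo peaks, and 117 (34.9%) had at most 5 starts in that Mb, against 15.4%. For pMo-only peaks the median was 6 and 43.8% had at most 5 starts, and for peaks in both monocytes 6 and 48%. IM-only and AM-only peaks had medians of 14 and 13, with 11.9% and 11.5%. Gene bodies held 154 (46.0%), against 40.6% of all iMo peaks. The other 4 sets ranged from 43.4% (both monocytes) to 54.9% (AM-only), with pMo-only peaks at 46.2%. Chromosome 3 held 36 of the iMo-only peaks (10.7%, against 5.81% of all iMo peaks) and chromosome 6 held 32 (9.55%, against 5.73%). Chromosome 11 held 6 (1.79%, against 5.88%). These chromosomes were picked after the values were seen, and their shares were not tested.

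The 67 peaks near a start fell into separate kinds. In 48 of them (71.6%) a peak of another cell type lay less than 500 bp away. Of the 268 peaks farther from a start, 27 (10.1%) had such a neighbour. Of the 48 genes beside such a neighbour, 39 had a mean of at least 1 TPM in iMo (TPM, transcripts per kilobase scaled to a fixed library total). These include Gnas, Psma7, Hist1h1e and Hadh. The remaining 19 peaks had no peak of another type within 500 bp, and 15 of their genes (78.9%) were below 1 TPM in iMo. That share was 54.6% over all genes of the table and 31.6% among genes nearest to any C57BL6J iMo peak. It was not counted for genes with any iMo peak within 1 kb of the start. In 14 of the 19 the RNA was below 1 TPM in all 4 cell types, as for Alx1, a homeobox factor of development, for Htr7, a serotonin receptor, and for Grpr and Gpc3. The nearest peak of another type was 293.1 kb from the Alx1 peak and 194.0 kb from the Grpr peak. The X chromosome held 7 of these 19 peaks, among them those at Grpr, Nap1l3, Fgf13, Ptchd1, Gspt2 and Gpc3, and none of the 48, against 2.83% of all iMo peaks within 1 kb of a start. This grouping was made after the values were seen, and it was not tested.

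**Figure D2:**
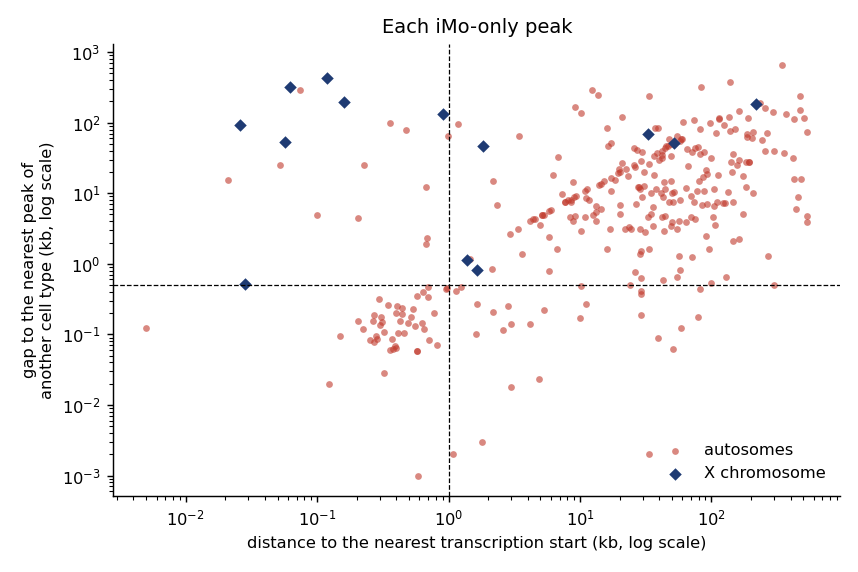
Each of the 335 iMo-only peaks by its distance to the nearest transcription start (kb, log scale) and the gap to the nearest peak of another cell type (kb, log scale), with peaks that touch drawn at the lowest value and dashed lines at 1 kb and at 0.5 kb. Within 1 kb of a start 48 peaks sit below the horizontal line and 19 above it, 7 of them on the X chromosome (diamonds).

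Of the 19, Gspt2 had the highest RNA. Gspt2 encodes a translation release factor (eRF3b) and is a close paralog of Gspt1, so its reads may be shared between the copies. The peak (chrX:94635943-94636143, score 52.9 in DBA2J and 36.6 in C57BL6J) lay 26 bp upstream of the start, 93.6 kb from any peak of another type. Gspt2 RNA was 22.1 and 15.0 TPM in DBA2J iMo and 16.6 and 11.7 TPM in C57BL6J iMo. It was 2.76 to 6.90 TPM over the 4 pMo libraries, 3.33 to 8.79 TPM over the IM libraries and 0 to 0.21 TPM over the AM libraries, so every iMo library was above every other library. The log2 difference was 1.72 ± 0.26 (SE) against pMo, 1.46 ± 0.26 against IM and 3.92 ± 0.26 against AM, with adjusted p = 0.00071, 0.00124 and 2.0e-07 (limma, 4 libraries per type).

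The RNA of the libraries labelled iMo was checked against 15 markers of inflammatory monocytes. The markers summed to 3215.3 to 4348.3 TPM over the 4 iMo libraries, against 384.2 to 588.9 TPM in pMo, 1647.9 to 2513.6 TPM in IM and 745.1 to 1623.2 TPM in AM, and limma called 14 of 15 higher in iMo than in pMo and none lower. Against IM 8 were higher and 2 lower, and against AM 12 were higher and 2 lower, the 2 lower against AM being Chil3 and Mcemp1. Of the 15 markers 12 were the nearest gene of 30 iMo peaks found in both strains, and 0 of these peaks was iMo-only, where 1.24% of all such iMo peaks are. A count of 0 in 30 is therefore near the background. In all 6 other lists were 15 of the 30, against 46.4% of all such iMo peaks.

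RNA of Vcan, the matrix proteoglycan versican, was 36.0 and 33.1 TPM in DBA2J iMo and 17.0 and 26.8 TPM in C57BL6J iMo, against 0.092 to 0.561 TPM in pMo, 1.13 to 9.27 TPM in IM and 0.186 to 1.30 TPM in AM. Of its 6 iMo peaks 4 occurred in all 6 other lists, AM included. Ly6c2, which encodes the Ly6C antigen of the sort, averaged 471.4 ± 150.8 TPM in iMo, 8.80 ± 2.36 TPM in pMo, 103.3 ± 53.7 TPM in IM and 0.431 ± 0.227 TPM in AM (SD, n = 4 each), and its single iMo peak was in all 6 other lists. F13a1, coagulation factor XIII, likewise had 1 iMo peak, found in every list, with RNA of 75.5 ± 14.2 TPM in iMo, 2.46 ± 0.954 TPM in pMo, 50.9 ± 10.1 TPM in IM and 0.0280 ± 0.0299 TPM in AM. Thbs1, thrombospondin, had a peak that was in no pMo or AM list but in both IM lists, with RNA of 47.2 ± 7.16 TPM in iMo, 4.57 ± 3.76 TPM in pMo, 30.0 ± 6.04 TPM in IM and 0.708 ± 0.667 TPM in AM.

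**Figure D3:**
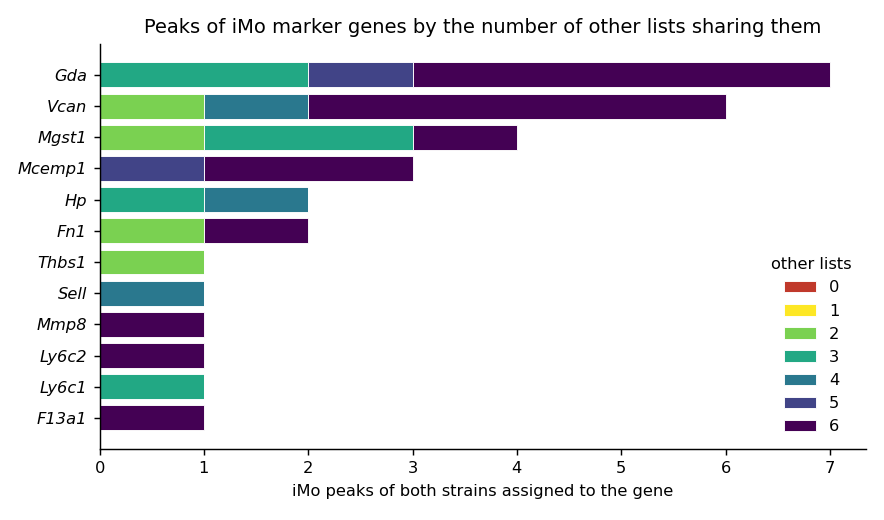
Number of iMo peaks found in both strains assigned to each of 12 inflammatory monocyte marker genes, coloured by how many of the 6 other lists hold an overlapping peak. No bar has a red part (0 other lists), and 15 of the 30 peaks are in all 6 other lists, against 46.4% of all iMo peaks found in both strains.

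Over 15 gene lists, which cover markers of 10 kinds of cell, trafficking, matrix and coagulation, pattern recognition and cytokines, interferon-stimulated genes and transcription factors, the genes with an iMo-only peak included Irf5. Transcription factors of the monocyte line had 229 iMo peaks at 51 of 56 genes, 127 of them in all 6 other lists. Interferon-stimulated genes had 35 at 17 of 25 genes and pattern recognition and cytokine genes had 85 at 28 of 32 genes. Of the 229 transcription factor peaks 2 were iMo-only, and of the 35 and 85 peaks none was. With a share of 1.24% over all such iMo peaks, few or none would be in lists of this size. The lists were chosen with earlier results of these data known, and their counts are a description.

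Irf5, a transcription factor that acts below Toll-like receptors and drives inflammatory cytokine genes, had 1 iMo-only peak among its 3 iMo peaks. That peak (chr6:29524316-29524516, score 74.5 in DBA2J and 88.4 in C57BL6J) lay 4.87 kb upstream of the start and only 23 bp from a peak of C57BL6J IM. Irf5 RNA was 549.9 and 484.0 TPM in DBA2J iMo and 592.4 and 606.6 TPM in C57BL6J iMo. It was 356.4 to 408.4 TPM in pMo, 183.5 to 267.4 TPM in IM and 29.1 to 57.1 TPM in AM, and the types did not overlap. The log2 difference was 0.53 ± 0.14 against pMo (limma adjusted p = 0.0177, lost in 7 of 18 alternative fits), 1.32 ± 0.14 against IM (3.2e-05) and 3.64 ± 0.14 against AM (2.5e-09).

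Apart from predicted genes and RIKEN clones, of which 4933429O19Rik had 3 iMo-only peaks and 1700060C16Rik, 4930500F04Rik and Gm7457 had 2 each, the genes with a pair of iMo-only peaks were Epha7, Fam60a, Gnas, Negr1, Tm4sf1 and Trim24. Epha7, an ephrin receptor, and Negr1, a neural adhesion protein, were at or below 0.156 TPM in all 4 iMo libraries. Tm4sf1, known from endothelial cells, was at 0.06 to 0.414 TPM in iMo and 1.18 to 3.54 TPM in IM. Gnas, which encodes the stimulatory G protein alpha subunit and lies in an imprinted cluster, had its peaks 0.410 kb downstream and 1.09 kb upstream of the nearest start, 104 and 2 bp from peaks of other types. Its RNA was 221.9 to 254.7 TPM in iMo, 138.0 to 149.8 TPM in pMo, 118.7 to 155.5 TPM in IM and 103.9 to 125.6 TPM in AM. Every iMo library was above every other library, and the log2 difference was 0.75 ± 0.08 against pMo, 0.84 ± 0.08 against IM and 1.08 ± 0.08 against AM (limma adjusted p = 6.5e-05, 1.4e-05 and 4.9e-07). Trim24, a cofactor of nuclear receptors, was at 2.44 to 4.02 TPM in iMo and 4.77 to 6.23 TPM in IM, and Fam60a, a subunit of the SIN3 deacetylase complex, at 1.85 to 4.52 TPM in iMo and 1.07 to 2.57 TPM in IM.

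**Figure D4:**
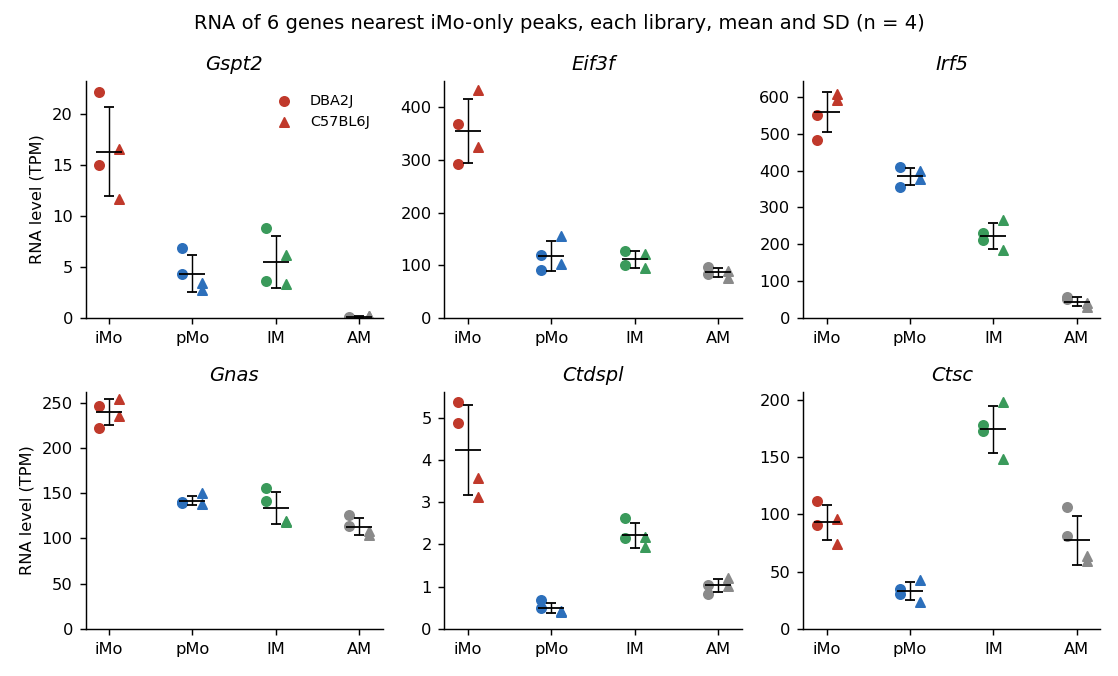
RNA level in TPM of 6 genes nearest to iMo-only peaks in iMo, pMo, IM and AM, with each DBA2J library as a circle, each C57BL6J library as a triangle and the mean and SD of 4 libraries in black. Every iMo library is above every other library for Gspt2, Eif3f, Irf5, Gnas and Ctdspl, and Ctsc is higher in IM.

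The genes nearest to iMo-only peaks were mostly silent or low in iMo, at a share near that of all genes in the table. Within 100 kb, 271 peaks were assigned to 260 genes. Of these 152 (58.5%) were below a mean of 1 TPM in iMo and 143 were below 1 TPM in all 4 iMo libraries. The share below 1 TPM was 31.6% among genes nearest to any C57BL6J iMo peak, 35.5% among those of pMo-only peaks, 37.4% among those of peaks in both monocytes but no macrophage, and 54.6% among all 24940 genes of the table. The median level in iMo was 0.278 TPM for the 260 genes, against 5.22 TPM for genes nearest to any iMo peak. It was 0.426 TPM over all genes of the table.

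RNA of the nearest genes was compared on the log2(TPM + 1) scale with limma fitted to 12277 genes whose average reached 1 TPM. Calls were made where the p adjusted over all of them by Benjamini-Hochberg was below 0.05. Of the 260 genes 114 (43.8%) were tested, so the counts cover the expressed ones only. Fewer cells of a type and less RNA per cell cannot be told apart in such bulk libraries.

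Against pMo, 25 of 114 genes (21.9%) were called higher in iMo and 2 (1.75%) lower, where the background over all tested genes was 18.9% higher and 6.36% lower. The share called higher is near the background. The median log2 difference was 0.26, against 0.13 over all genes. Other scalings shifted all genes and changed the split. Median-of-ratios scaling gave 17 higher and 6 lower (over all genes, median -0.02, 12.7% higher and 12.7% lower). Under quantile normalization it was 15 higher and 4 lower (over all genes, median 0.01, 11.9% and 10.7%). After removal of Rn45s and Mir6236, entries of ribosomal origin, 141 of the nearest genes were tested. Of these 10 were higher and 9 lower (over all genes, median -0.13, 8.31% and 14.1%). A single library also moved the count, to 11 higher without replicate 1 of DBA2J iMo, and to 12 higher and 4 lower without replicate 1 of DBA2J pMo. For comparison, of 104 tested genes nearest to pMo-only peaks 15 (14.4%) were called higher in iMo and 24 (23.1%) lower.

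Of the 25, 7 had a log2 difference over 1, among them Ctdspl, Gspt2, Eif3f, Ctsc, Hist1h1e and Hadh. Ctdspl, a small phosphatase of the RNA polymerase tail, was at 5.36 and 4.88 TPM in DBA2J iMo and 3.56 and 3.13 TPM in C57BL6J iMo, against 0.389 to 0.674 TPM in pMo (log2 difference 1.79 ± 0.14, limma adjusted p = 7.2e-06). Its peak lay inside the gene, 1.15 kb from the start and 413 bp from a peak of C57BL6J IM. Ctsc, cathepsin C, which activates granule proteases, was at 74.1 to 111.6 TPM in iMo and 23.9 to 42.5 TPM in pMo (1.48 ± 0.18, 0.000152), but at 148.3 to 198.3 TPM in IM. Its peak lay 65.9 kb from the start. The pair called lower in iMo were Slc12a2, the cation-chloride cotransporter NKCC1, at 4.50 to 6.68 TPM in iMo against 35.8 to 83.9 TPM in pMo (-2.96 ± 0.27, 2.3e-05), and Myo1c, a class I myosin, at 84.6 to 110.2 TPM in iMo against 136.1 to 154.3 TPM in pMo (-0.65 ± 0.10, 0.000787). Their iMo-only peaks lay 0.150 kb and 1.78 kb from the start, and 95 and 3 bp from peaks of DBA2J pMo and DBA2J AM. Apart from Eif3f and Gspt2, genes in this paragraph were chosen after their values were seen.

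Against IM, 11 of 114 genes (9.65%) were called higher in iMo and 31 (27.2%) lower, with a background of 15.6% higher and 21.7% lower. The median log2 difference was -0.14, against -0.10 over all genes. Median-of-ratios scaling gave 28 higher and 29 lower (over all genes, median 0.04, 25.3% higher and 20.4% lower). Under quantile normalization 24 were higher and 19 lower (over all genes, median 0.09, 23.5% and 16.3%). Once the ribosomal entries were removed 9 of 141 tested were higher and 55 lower (over all genes, median -0.31, 10.6% and 34.6%). Among the 31 were Ptprb, an endothelial phosphatase, at 0.557 to 1.07 TPM in iMo and 1.33 to 17.2 TPM in IM, and Vcam1, the ligand of the integrin VLA-4, listed at 0 in all 4 iMo libraries and at 0.770 to 22.0 TPM in IM. Pdgfc, a growth factor, was at 0.00400 to 0.0220 TPM in iMo and 2.69 to 3.78 TPM in IM (-2.05 ± 0.21, limma adjusted p = 2.0e-05). These 3 genes were chosen after their values were seen. Markers of other cells moved with this contrast. The 12 neutrophil markers summed to 178.0 to 240.8 TPM in iMo and 2874.8 to 4728.4 TPM in IM, with all 7 tested ones called lower in iMo. The 9 endothelial, epithelial and fibroblast markers summed to 13.5 to 25.2 TPM in iMo and 24.5 to 237.6 TPM in IM, and 8 B cell markers to 59.7 to 272.4 TPM in iMo and 105.8 to 404.8 TPM in IM. Their part in these calls was not tested.

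Against AM, 66 of 114 genes (57.9%) were called higher in iMo and 6 (5.26%) lower, with a background of 54.3% higher and 11.9% lower. The median log2 difference was 0.70, against 0.55 over all genes. Median-of-ratios scaling gave 41 higher and 26 lower (over all genes, median -0.02, 28.3% higher and 27.7% lower). Under quantile normalization 43 were higher and 21 lower (over all genes, median 0.03, 29.7% and 25.2%). Once the ribosomal entries were removed 40 of 141 tested were higher and 27 lower (over all genes, median -0.04, 24.8% and 26.4%). The 3 contrasts share the iMo libraries, so their calls are not independent of each other.

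**Figure D5:**
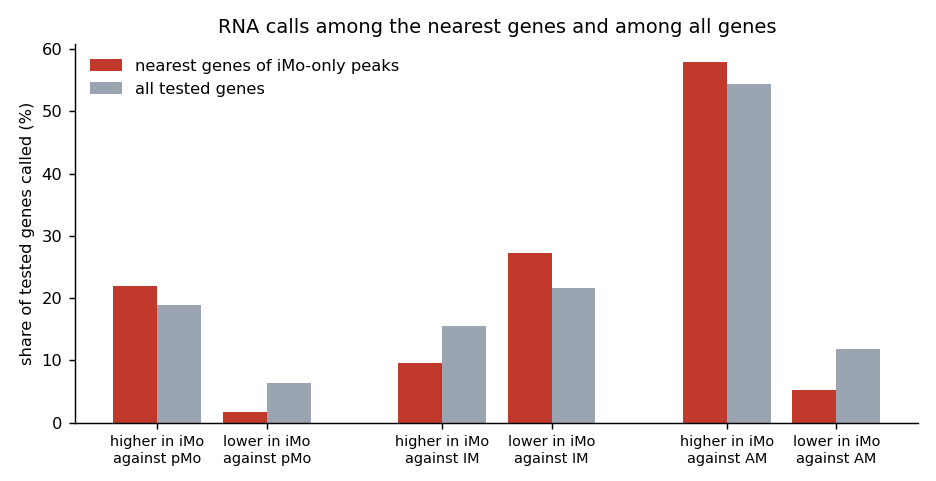
Share of tested genes called higher or lower in iMo against pMo, IM and AM (limma, adjusted p under 0.05), in percent, for the 114 tested genes nearest to iMo-only peaks (red) and for all 12277 tested genes (grey). The red and grey bars are farthest apart for the share lower against AM, 5.26% against 11.9%.

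Higher in iMo than in each other type were 8 of 114 genes (7.02%), against 851 of all 12277 (6.93%), and 0 of 114 were lower than in each, against 188 (1.53%). The 8 are Eif3f, Gspt2, Gnas, Irf5, Psma7, Ctdspl, Fbrsl1 and Npepl1. Only Eif3f and Gspt2 reached a log2 difference of 1 in all 3 contrasts (1.75%, against 1.09% of all tested genes). Eif3f encodes a subunit of translation initiation factor eIF3. Its RNA was 368.8 and 292.8 TPM in DBA2J iMo and 431.7 and 324.5 TPM in C57BL6J iMo. It was 92.3 to 155.7 TPM in pMo, 95.6 to 128.0 TPM in IM and 75.5 to 96.7 TPM in AM, with log2 differences of 1.60 ± 0.17, 1.66 ± 0.17 and 2.01 ± 0.17 (limma adjusted p = 6.6e-05, 2.7e-05 and 1.5e-06). The iMo-only peak (chr7:108957793-108957993, score 33.3 in DBA2J and 42.9 in C57BL6J) lay 23.5 kb downstream of the start, 3308 bp from the nearest peak of another type. Psma7, a subunit of the core proteasome, was at 83.2 to 138.2 TPM in iMo, 54.2 to 63.7 TPM in pMo, 39.6 to 46.2 TPM in IM and 29.9 to 37.3 TPM in AM, and its peak had the lowest score of the C57BL6J list, 29.0. Npepl1, an aminopeptidase-like protein, was at 47.8 to 53.1 TPM in iMo and 37.2 to 43.9 TPM in pMo, and its direction against AM turned under all 3 other scalings. Fbrsl1 and Npepl1 each lost the call against pMo in 10 of 18 alternative fits. Psma7, Fbrsl1 and Npepl1 fall outside the naming rule and were chosen after their values were seen.

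No strain difference was called among these genes. In iMo, 0 of 114 genes were called higher in DBA2J than in C57BL6J and 0 lower by limma, with a background of 1.31% higher and 2.16% lower, and 13 had an unadjusted p under 0.05. At shares this low few calls would be made among 114 genes, so the 0 is not read as a trait of them. Eif3f differed by -0.19 ± 0.24, Gspt2 by 0.36 ± 0.37 and Irf5 by -0.22 ± 0.20 (log2, DBA2J minus C57BL6J, SE, 2 libraries per strain, limma adjusted p of 0.692 and above). The rule asked for a peak in both strains, so presence in a strain was fixed by the choice of regions.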

How the data were processed

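The authors deposited RNA levels as TPM for 24940 genes. They also deposited a peak list for each cell type and strain, in which each peak has a score on a scale that no source used here states. The submitters' processing notes name mm10, HOMER, Bowtie and STAR, with no versions or roles. Depth is unknown, and the spread among libraries alone gives the precision. Per the labels' protocols, polyA RNA was sequenced by a strand-marking method.

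The regions, gene lists, motifs and rules for named genes were chosen with earlier results of these data known. Overlaps needed 1 bp. Each peak was assigned to the nearest transcription start of the authors' gene table within 100 kb. RNA was analysed as log2(TPM + 1) with limma 3.58.1 (R 4.3.3). A single model held the 8 groups of cell type and strain (8 residual degrees of freedom) and a variance trend, over 12277 genes averaging 1 TPM or more, with Benjamini-Hochberg adjustment over all of them. Contrasts average both strains. Fitting was tested on simulated data. Named genes were those called higher, or lower, in iMo against each type with a log2 difference of at least 1, the 6 with most iMo-only peaks after predicted genes and RIKEN clones were set aside, and members of the lists, beside the 10 peaks with the highest scores; other genes are said to be chosen after their values were seen. The motifs, with N for any base, were GAGGAAGT and CNGGAAGT (ETS), TTGCNNAA (C/EBP), GAAANNGAA (IRF), GGAANNGAA (ETS-IRF), TGANTCA (AP-1), TGTGGTT (RUNX), GGGTGTGG (KLF), GGGANTTCC (NF-kB), AAAGGTCA (NR4A), ATGCAAAT (octamer), TGCTGAC (MAF), TTCCNGGAA (STAT), CACGTG (E-box) and the CTCF core. They may overlap each other (the ETS and ETS-IRF motifs share letters). They were searched only in RefSeq promoter windows, since no genome was used here, in place of the 200-base windows planned. Overlaps, sequences and figures used Python 3.11.15, numpy 2.4.6, pandas 2.3.3, scipy 1.17.1 and matplotlib 3.10.9. Some results are not reported here.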

Additional observations from a re-analysis of the deposited data

Results flagged for a closer look

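Dixon's test was applied to the 4 libraries of a cell type for 20 genes given in the report, in 79 groups, and 4 groups had a library far from the other 3, about as many as the 1 in 20 that chance gives. Vcam1 was at 22.0 TPM in replicate 2 of C57BL6J IM, against 0.770 to 4.37 TPM in the other IM libraries. Ptprb was at 1.07 TPM in replicate 1 of C57BL6J iMo, against 0.557 to 0.623 TPM in the other iMo libraries. Myo1c was at 38.5 TPM in replicate 2 of C57BL6J AM, against 43.9 to 44.9 TPM in the others, and Ptchd1 at 0.092 TPM in replicate 2 of DBA2J AM, against 0.047 to 0.054 TPM.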

How the results depend on the processing

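The number of iMo-only peaks was 1134 without the C57BL6J IM list, 41 with a C57BL6J score at or above the list's median and 36 with the second deposited score at or above its median (added after the data were seen). The share within 1 kb of a start was 7.31% where no other type had a peak within 500 bp, 25.0% by that second score, and 13.4% lay within 500 bp and 28.7% within 5 kb of a start. The RNA counts, written here as higher and lower in iMo, moved by over 1.5 times as follows, and the cause was not tested except where fewer or more genes entered by construction. With no filter (241 genes tested) 4 were lower than pMo, 70 lower than IM, 14 lower than AM and 2 higher in DBA2J. With a mean of at least 5 TPM (70 tested) 13 were lower than IM and 2 lower than AM. Median-of-ratios scaling gave 6 lower than pMo, 28 higher than IM, and 41 higher and 26 lower than AM. Quantile normalization gave 15 and 4 against pMo, 24 and 19 against IM, and 43 and 21 against AM. Without Rn45s and Mir6236 (141 tested) there were 10 and 9 against pMo, 55 lower than IM, 40 and 27 against AM, and 1 higher in DBA2J. A fit of the compared groups alone gave 15 higher than pMo and 10 lower than AM. Assignment within 20 kb gave 18 lower than IM and 3 lower than AM. C57BL6J libraries alone gave 6 and 1 against pMo and 7 and 14 against IM, and DBA2J libraries alone gave 11 higher than pMo and 18 lower than IM. Peaks anchored on DBA2J gave 1 lower than pMo. Peaks with no other within 500 bp gave 12 and 0 against pMo, 5 higher than IM and 35 higher than AM. An overlap of 50% gave 10 lower than AM and 1 higher in DBA2J. Without the C57BL6J IM list there were 104 and 16 against pMo, 62 and 120 against IM, 275 and 42 against AM, and 6 higher and 4 lower in DBA2J. Scores at or above the median gave 4 higher than pMo, 3 and 3 against IM, and 11 and 0 against AM, and second scores at or above the median 4, 2 and 2, and 10 and 0. With 1 library left out in turn, 11 to 24 were higher and 2 to 4 lower than pMo, 9 to 14 higher and 22 to 32 lower than IM, 61 to 69 higher and 5 to 7 lower than AM, and 0 higher and 0 to 1 lower in DBA2J. The 11 came without DBA2J iMo replicate 1, and leaving out DBA2J pMo replicate 1 gave 12 higher and 4 lower than pMo; a lone remaining library is assumed to vary like the other groups.

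Replicate numbers paired no samples (deviations of same-numbered libraries correlated at a median of 0.02 over 28 pairs of groups, from -0.07 to 0.20). The fit with a replicate block gave 24 higher than pMo, 11 and 31 against IM, 66 and 6 against AM, and no change elsewhere. Of 797 alternative values of 45 called differences in 20 genes, 741 kept direction and call, 51 lost the call and 5 turned. Npepl1 turned to -0.02 against pMo without the ribosomal entries, and against AM to -0.21, -0.26 and -0.20 under median-of-ratios scaling, quantile normalization and removal of those entries. Mnat1 turned to 0.10 against IM under quantile normalization. Motif alternatives were not run, since the sequence of distal peaks was not used.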
